A study of Drosophila melanogaster with 9 samples.

Results

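The Pax genes of *Drosophila melanogaster* encode transcription factors with a paired domain, and 10 of them were followed here. They were *ey*, *toy*, *eyg*, *toe*, *prd*, *gsb*, *gsb-n*, *Poxn*, *Poxm* and *sv*. Members were found by name, as all probe sets whose platform annotation gives one of these symbols and no other. This gave 12 probe sets for 9 genes, of 18768 probe sets and 11982 genes in all. *toy* had 3 probe sets, *Poxm* had 2 and the 7 others had 1 each, while *toe* had no named probe set and was not analysed here. The measurements are messenger RNA levels on 9 Affymetrix expression arrays, 3 each from Mock RNAi BG3 cells, Ph RNAi BG3 cells and wing imaginal discs. BG3 cells are male and grow as a line that was once derived from the central nervous system of larvae. The Ph RNAi cells received 10 µg per well of double-stranded RNA against the stretches that *ph-p* and *ph-d* share, and were taken after 5 days. The labels name no dsRNA without a target for Mock RNAi, so that a response to dsRNA itself and a response to loss of Ph cannot be told apart. The discs came from late last-instar *yw* larvae of both sexes, at 12 to 15 discs a replicate.

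Pax proteins bind DNA through the paired domain, and several of them also carry a homeodomain. They act as selectors of organs and cell types, in roles that range from segment formation to the eye, muscle and sense organs. In the fly nervous system several of them mark subsets of neural precursors or neurons. Many genes for developmental transcription factors are known targets of Polycomb silencing, in which PRC1, the complex that contains Polyhomeotic (Ph), keeps a gene off where it is not used. The study addressed PRC1 function both where genes are silent and where they are transcribed, and the Pax genes stand here as a family of regulators that each organ uses in its own way.

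Values are log2 expression values as deposited, and arrays of one group correlated at r = 0.9904 or above over all probe sets. The values of the genes fell into a lower mode of weak signals and an upper mode of clear ones. On the BG3 arrays the lower mode peaked at 1.88 and the boundary between the modes lay at 4.03, and on the wing disc arrays at 0.59 and 2.89. By group mean, 46.2% of all 11982 genes were in the upper mode in Mock RNAi, 46.6% in Ph RNAi and 48% in wing disc. Wing disc arrays were on another scale than the BG3 arrays (medians over probe sets of 0.827 to 0.842 against 2.21 to 2.23), so that wing disc was not tested against BG3. Neither RNAi target, *ph-p* or *ph-d*, has a probe set under its name, so the depletion was not checked and the groups are those of the labels. Of 9 measured neuron markers 2 were in the upper mode in Mock RNAi, among them the neuronal RNA-binding protein gene *elav* (6.69 ± 0.56, SD, n = 3), whereas the synaptic gene *nSyb* was in the lower mode (2.09 ± 0.14). Markers of other cell types were in the upper mode there too. They were 5 of 9 for glia, 4 of 8 for hemocytes and 2 of 4 for muscle precursors, shares near the 46.2% of all genes. These counts thus do not tell which cell types are present, and the glial genes *repo* and *gcm* were in the lower mode. For neuroblasts 0 of 8 markers were in the upper mode in Mock RNAi, and for wing disc 1 of 8. In wing disc 7 of 8 markers of that tissue were in the upper mode. So were 5 of 9 glia markers and *elav* (7.29 ± 0.13, SD, n = 3). The wing disc arrays differed in fat body transcripts, with *Lsp2*, a larval serum protein gene, at 8.71, 5.68 and 2.34 in replicates 1, 2 and 3.

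In BG3 cells every measured Pax gene was in the lower mode, before and after Ph RNAi, on all 6 arrays. The upper mode held 46.2% of all genes in Mock RNAi and 46.6% in Ph RNAi. After Ph RNAi 0 of the 9 genes were called higher and 0 lower by limma at an adjusted p under 0.05, while the unadjusted p was under 0.05 for 1. Over all genes tested, 4.77% were called, 3.2% higher and 1.57% lower, and for 16.5% the unadjusted p was under 0.05. Of the 12 probe sets 0 were called and 1 had such an unadjusted p, against 3.6% and 14% of all probe sets. With 9 genes, a count of 0 is near that background and is not a result about the family. The median change of the 9 genes was 0.09 on the log2 scale, against -0.03 over all 11982 genes, with 6 changes positive and 3 negative. GCRMA, with which the authors processed the arrays, draws weak signals into a narrow band, where a difference in RNA can be understated and a fall can hardly be seen. Differences are therefore given on the log2 scale with their intervals and not as folds.

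**Figure D1:**
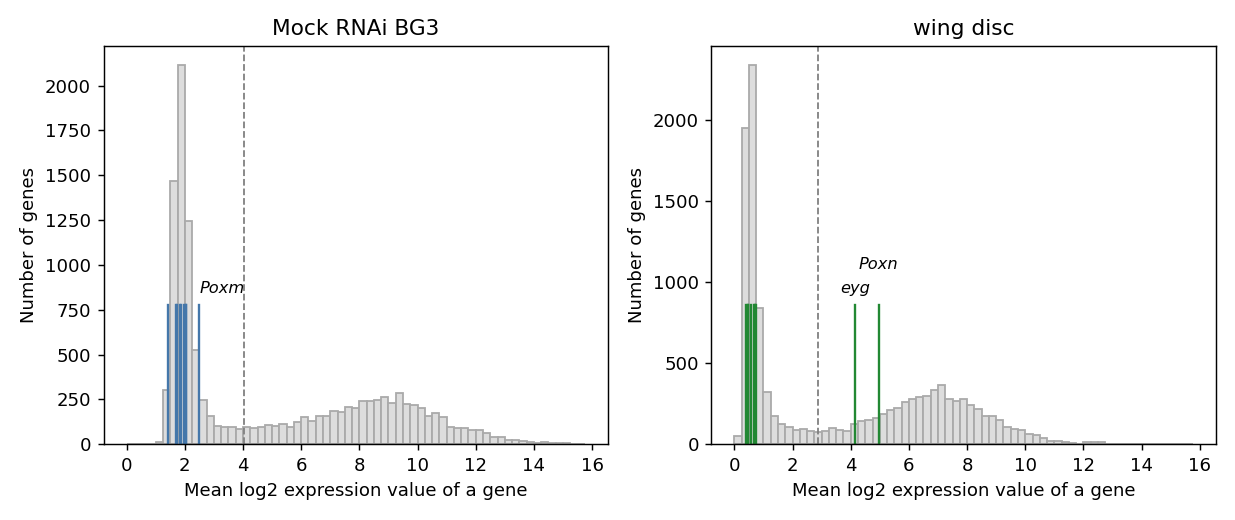
Histograms of the mean log2 value of each of 11982 genes over the 3 Mock RNAi BG3 arrays (left) and the 3 wing disc arrays (right), with the number of genes on the y axis. Coloured lines mark the 9 measured Pax genes and the dashed line the boundary between the modes (4.03 and 2.89). All 9 are in the lower mode in Mock RNAi, and in wing disc *eyg* and *Poxn* are above the boundary.

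*ey* and *toy* are the fly's Pax6 genes. Both direct eye development, *toy* acts upstream of *ey*, and both are used in the brain. *ey* read 2.1, 2.1 and 1.95 in Mock RNAi replicates 1, 2 and 3 and 2.15, 1.97 and 2.28 in Ph RNAi. The groups overlapped, with a change of 0.09 ± 0.13 (SE, adjusted p = 0.81). The probe set of *toy* with the highest mean, which stands for the gene, read 1.92, 2.08 and 2.13 in Mock RNAi and 2.23, 2.52 and 1.79 in Ph RNAi. Its Ph RNAi arrays spread on both sides of all Mock RNAi arrays, and the change was 0.14 ± 0.18 (SE, adjusted p = 0.778). The changes of the other two probe sets of *toy* were 0.1 ± 0.17 and -0.1 ± 0.12 (SE, adjusted p = 0.869 and 0.793 over all probe sets). The 3 *toy* probe sets thus gave no common direction. The 95% interval of the change was -0.2 to 0.38 for *ey* and -0.26 to 0.53 for *toy*, so that on this scale a change of 1 was outside both.

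*eyg* encodes a Pax6-related protein with a shortened paired domain, and together with its neighbour *toe* it is known from eye growth and from the dorsal thorax. *eyg* stood at 1.82, 1.92 and 1.75 in Mock RNAi and at 2.06, 1.93 and 1.82 in Ph RNAi. The ranges overlapped and the change was 0.11 ± 0.11 (SE, adjusted p = 0.712).

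*prd*, *gsb* and *gsb-n* form the group of segmentation genes of the family. *prd* is a pair-rule gene of the embryo, *gsb* is a segment polarity gene that also acts in neuroblasts, and *gsb-n* is used later in the embryonic nerve cord. *prd* read 1.91, 2.01 and 1.96 in Mock RNAi and 1.85, 1.74 and 1.99 in Ph RNAi, a change of -0.1 ± 0.11 (SE, adjusted p = 0.735). *gsb* read 1.3, 1.53 and 1.43 against 1.62, 1.65 and 1.48, a change of 0.16 ± 0.1 (SE, adjusted p = 0.439). Of the 9 genes *gsb* had the second smallest p value, and yet its Ph RNAi replicate 3 lay below Mock RNAi replicate 2. *gsb-n* read 1.68, 1.76 and 1.62 against 1.64, 1.49 and 1.81, a change of -0.04 ± 0.11 (SE, adjusted p = 0.895). All 3 genes overlapped between the groups, and none of their 95% intervals reached 0.5 in either direction.

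*Poxn* and *sv* are Pax genes of sense organs. *Poxn* gives bristles their chemosensory fate, and *sv*, the Pax2 gene of the fly, is required in the shaft of bristles and in cone cells of the eye. *Poxn* read 1.89, 1.82 and 1.85 in Mock RNAi, where its arrays were close together, and 1.66, 2.14 and 1.97 in Ph RNAi, on both sides of them (change 0.07 ± 0.13, SE, adjusted p = 0.855). *sv* read 2.02, 1.56 and 1.57 against 1.75, 1.63 and 1.58, so that Mock RNAi replicate 1 was the highest of the 6 arrays. Its change was -0.07 ± 0.13 (SE, adjusted p = 0.865).

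**Figure D2:**
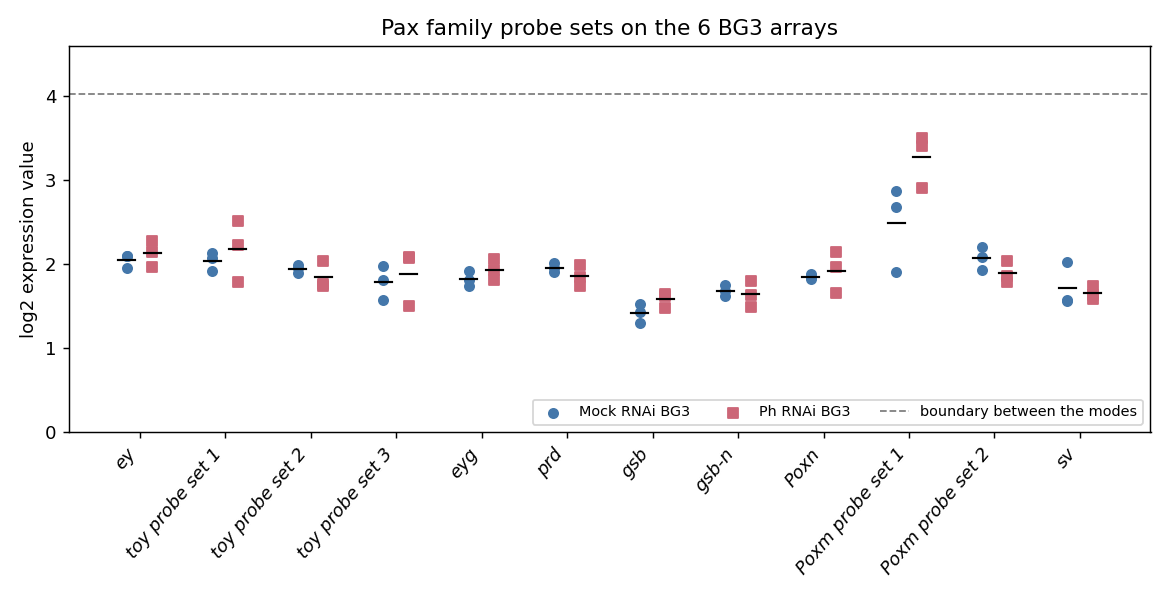
Log2 expression value of each of the 12 Pax probe sets (x axis) on the 3 Mock RNAi (circles) and 3 Ph RNAi (squares) BG3 arrays, with short lines at the group means and the dashed line at the boundary between the modes (4.03). All values are under the boundary, the highest being 3.51 for *Poxm*, and only *Poxm* probe set 1 has groups that do not overlap.

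*Poxm*, a Pax gene of the mesoderm that takes part in the formation of muscles, was the member with the smallest p value. Its probe set with the higher mean read 1.91, 2.88 and 2.69 in Mock RNAi and 2.91, 3.41 and 3.51 in Ph RNAi. All Ph RNAi arrays lay above all Mock RNAi arrays, though Mock RNAi replicate 2 and Ph RNAi replicate 1 were next to each other. Of all genes, 9.91% had all Ph RNAi arrays above all Mock RNAi arrays, 13.6% had them all below, and 23.5% thus had groups that did not overlap. As a rank within the array the groups of *Poxm* did overlap, since Mock RNAi replicate 2 was at the 60.3th percentile of the probe sets, as was Ph RNAi replicate 1. The change was 0.79 ± 0.27 (SE, 95% interval 0.19 to 1.38) and did not pass the test (unadjusted p = 0.0148, adjusted p = 0.156, limma). The second probe set of the gene read 2.21, 1.93 and 2.09 against 1.79, 2.04 and 1.86, with a change of the other sign (-0.18 ± 0.13, SE, adjusted p = 0.606 over all probe sets). Without Mock RNAi replicate 1, the lowest of the arrays, the change of the gene was 0.5, and the mean of the 2 probe sets gave 0.3. With the replicate number as a block, a pairing that the labels do not state, the change passed the test (adjusted p = 0.029, limma). Even after Ph RNAi the higher probe set stayed under the boundary of 4.03.

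Markers of muscle precursors were read beside *Poxm*. Of 4 measured, 1 was called higher. This was *twi*, a factor of the mesoderm, which rose from 2.33 ± 0.28 to 4.05 ± 0.26 after Ph RNAi (SD, n = 3 each, adjusted p = 0.00121). The other 3 did not pass the test, with changes of 0.49 for *htl*, 0.14 for *Him* and -0.39 for *zfh1*, whose Ph RNAi arrays all lay below its Mock RNAi arrays. The summed log2 level of the 4 markers was 24.4 to 25.4 in Mock RNAi and 26.5 to 27.3 in Ph RNAi, and *twi* made up most of that difference. Their part in the values of *Poxm* was not tested.

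**Figure D3:**
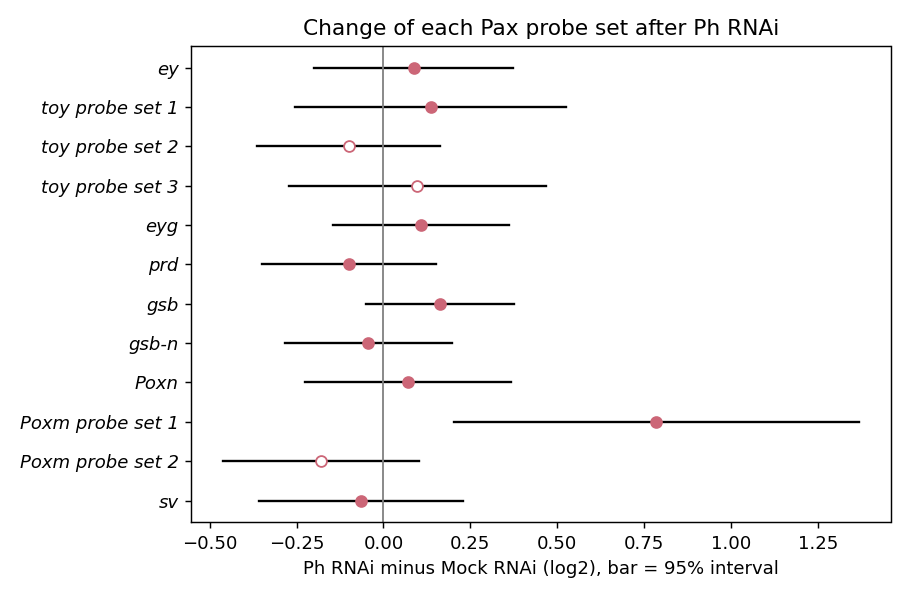
Difference between Ph RNAi and Mock RNAi on the log2 scale (x axis) for each of the 12 Pax probe sets, with 95% intervals from the limma fit over all 18768 probe sets. Filled points stand for the gene, open points are its further probe sets. The interval of *Poxm* probe set 1 lies above 0 before adjustment (adjusted p = 0.176 in that fit), and all other intervals include 0.

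Pax genes of the eye act through a set of partner and target genes, and others feed into segment and appendage patterning. A list of 30 genes that act with or after Pax genes was compared with the family, of which 27 were measured. Of these, 9 were called higher and 0 lower after Ph RNAi, with a median change of 0.42, and the unadjusted p was under 0.05 for 16. Over all genes the shares were 3.2%, 1.57% and 16.5%, and the median change -0.03. The list was chosen with earlier results of these data known, so its counts are not a test of an excess. The upper mode held 2 of the 27 genes before and 9 after Ph RNAi, against 46.2% and 46.6% of all genes. Cell type markers were also called higher, with 4 of 9 for glia (*repo*, *nrv2*, *loco* and *Gli*), 3 of 8 for neuroblasts (*pros*, *insc* and *SoxN*) and 3 of 8 for wing disc (*nub*, *salm* and *dve*). The other 5 of each list did not pass the test. Their changes were -0.89 (*wrapper*) to 2.78 (*alrm*) for glia and -0.23 (*mira*) to 0.3 (*l(1)sc*) for neuroblasts. For wing disc they were -0.04 (*Doc1*) to 0.77 (*vg*). All Ph RNAi arrays of *wrapper* lay below its Mock RNAi arrays. Of 8 hemocyte markers 1 was called higher (*He*, 3.19) and 1 lower (*Ppn*, -1.74), and of 3 trachea markers 1 was called higher (*vvl*). Of the 9 neuron, 3 fat body and 5 eye photoreceptor and cone cell markers 0 were called. Changes of the neuron markers were -1.71 (*nrv3*) to 0.7 (*elav*). The summed log2 level was 51.6 to 54.1 in Mock RNAi and 65.7 to 70.1 in Ph RNAi for the glia markers, 16.3 to 18.1 and 31.5 to 36.5 for the neuroblast markers, and 20.2 to 20.9 and 25 to 30.6 for the wing disc markers. *pros* is on the list of neuroblast markers too, and the part of these cell types in the list's values was not tested. Of its 8 measured genes of eye development (*so*, *eya*, *dac*, *Optix*, *dan*, *danr*, *ato* and *gl*, grouped after their values were seen), 3 were called. These were *so*, *dac* and *Optix*, which encode nuclear factors of eye determination. *Optix* read 2.21, 2.37 and 2.24 in Mock RNAi and 8, 7.54 and 8.36 in Ph RNAi, a wide gap between the groups. *dac* read 2.09, 2.73 and 2.13 against 4.46, 3.55 and 5.41, a change of 2.15 ± 0.4 (SE, adjusted p = 0.0101). *so* rose by 0.68 ± 0.17 (SE, adjusted p = 0.0442) and stayed in the lower mode at 2.8 ± 0.25 (SD, n = 3). *eya*, whose product is the partner of So, missed the threshold (0.64 ± 0.17, SE, adjusted p = 0.0618). The changes of *dan*, *danr*, *ato* and *gl* were -0.23 to 0.34 and did not pass the test (adjusted p = 0.329 to 0.832).

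The other called members of that list were *tsh*, *odd*, *slp2*, *pros*, *dpp* and *Dll*. *slp2*, a forkhead gene of the segmentation cascade, rose by 2.52 ± 0.31 (SE, adjusted p = 0.000777), and *Dll*, the homeobox gene of limbs, by 1.72 ± 0.31 (SE, adjusted p = 0.00784). *Dll* stayed in the lower mode at 3.93 ± 0.63 (SD, n = 3). With the mean of its probe sets, the change of *Dll* was smaller (0.82, adjusted p = 0.0206). *odd*, a pair-rule gene, rose by 0.42 ± 0.1 (SE, adjusted p = 0.0369) and stood at 2.03 ± 0.03 (SD, n = 3) after Ph RNAi, still near the peak of the lower mode. The calls of *odd* and *so* were the weakest. That of *odd* was lost with any 1 of the 6 arrays left out (adjusted p = 0.0733 to 0.132), and that of *so* with any except Ph RNAi replicate 2 (0.0703 to 0.153). Without the variance trend both calls were lost (adjusted p = 0.0926 for *odd* and 0.0647 for *so*), as they were with median centring over the genes tested (0.187 and 0.108). The call of *so* was also lost with quantile normalization (0.0541).

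The paired-class homeobox genes share the type of homeodomain found in several Pax proteins but have no paired domain. Of 19 listed, 17 were measured, and 2 were called higher and 0 lower, with a median change of -0.02. This list too was chosen with earlier results of these data known. The called genes were *repo*, the glial factor, and *oc*, also called orthodenticle, a gene of head and eye development. *oc* read 1.83, 1.35 and 1.26 in Mock RNAi and 4.92, 5.27 and 4.91 in Ph RNAi, a change of 3.55 ± 0.23 (SE, adjusted p = 4.77e-06). *repo* read 3.08, 2.6 and 3.69 against 10.25, 10.24 and 10.19. These 2 were the only genes of the list in the upper mode after Ph RNAi, and the changes of the others were 15 values from -0.19 upward that did not pass the test. Among the genes in the lower mode in Mock RNAi, where all Pax genes were, 200 of 6452 (3.1%) were called higher, with a median rise of 2.12 and a smallest rise of 0.42 for those called. The interval of *Poxm* ended at 1.38, and those of the other 8 Pax genes lay between -1 and 1. A rise as small as the smallest called one lay inside the intervals of *Poxm* and *toy*.

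**Figure D4:**
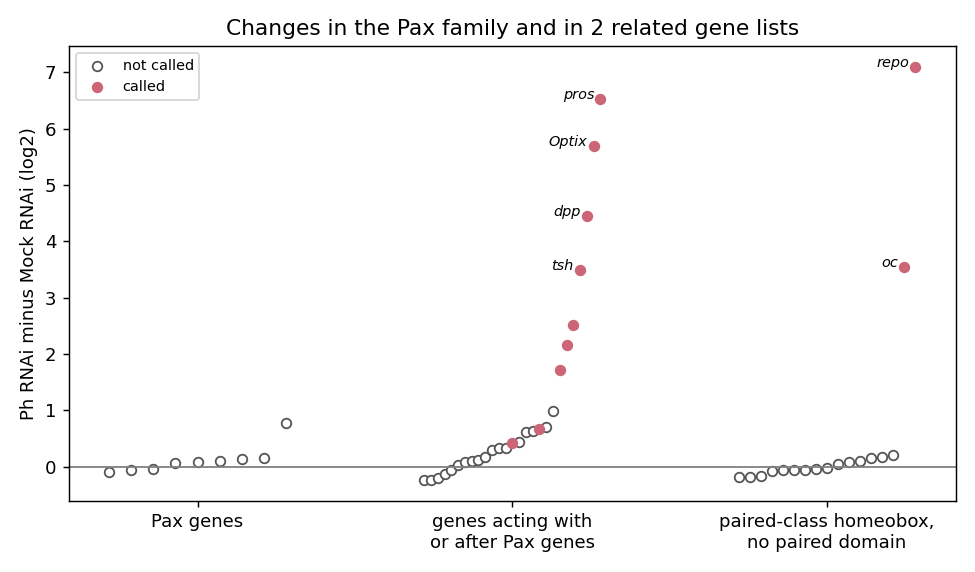
Difference between Ph RNAi and Mock RNAi on the log2 scale (y axis) for the 9 measured Pax genes, 27 genes that act with or after Pax genes and 17 paired-class homeobox genes, each point a gene, ordered by its value. Filled points were called (adjusted p under 0.05). They number 0, 9 and 2, and the called genes with a rise above 3 are named.

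In wing disc, 2 of the 9 measured Pax genes were in the upper mode and 7 in the lower mode, while the upper mode held 48% of all genes. *eyg* read 4.31, 4.41 and 3.76 in wing disc replicates 1, 2 and 3, all above the boundary of 2.89. *Poxn* read 4.88, 4.95 and 5.04, closer together than *eyg*. Both genes were under the upper peak of the wing disc values, at 6.92. In bulk tissue, fewer cells with a transcript and less of it in each cell cannot be told apart.

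Ranks within each array allow both scales to be set side by side, though not tested. Control probe sets at the 3' and 5' ends of a transcript differed more in wing disc than in BG3 cells. Their mean log2 difference was 3.2 for actin in wing disc, against 2.01 in Mock RNAi and 1.82 in Ph RNAi. It was 1.47 against 0.85 and 0.9 for GAPDH, and 5.87 against 3.03 and 3.3 for eIF-4a. The part of RNA quality in the ranks was not tested. *eyg* was at the 66.4th percentile of the probe sets in wing disc (SD 1.05, n = 3), against the 26.1th in Mock RNAi and the 34.2th in Ph RNAi. *Poxn* was at the 69.4th percentile in wing disc (SD 0.428, n = 3), against the 28th and the 32.4th. The median over all genes was the 61.2th percentile in wing disc, the 60.2th in Mock RNAi and the 60.9th in Ph RNAi. For *eyg* and *Poxn* the lowest wing disc rank was above the highest of the 6 BG3 ranks. The share of all probe sets with such a gap was not computed, so that it is not shown to be particular to these genes. With only probe sets of a single gene symbol ranked, the wing disc percentiles were 59.5 for *eyg* and 63.2 for *Poxn*.

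Without wing disc replicate 1, which had the highest level of *Lsp2*, the percentiles were 66.3 for *eyg* and 69.7 for *Poxn*. The adepithelial cells of the disc, which give rise to flight muscles, were also present by their markers, with 4 of 4 measured muscle precursor markers in the upper mode. Their part in the levels of *eyg* and *Poxn* was not tested. Of 5 measured eye photoreceptor and cone cell markers 1 was in the upper mode. This was *ct*, which wing discs also use (3.15 ± 0.1, SD, n = 3).

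The other 7 Pax genes, with 10 probe sets, had wing disc values from 0.309 to 0.816. *ey* read 0.82, 0.77 and 0.69 and *toy* 0.58, 0.78 and 0.71. *prd* read 0.52, 0.56 and 0.38, *gsb* 0.54, 0.61 and 0.6, and *gsb-n* 0.43, 0.46 and 0.56. *Poxm* read 0.67, 0.74 and 0.74 and *sv* 0.39, 0.31 and 0.46. All of these were within the lower mode, where a rank carries little. The second probe set of *Poxm* ran from the 9th to the 43.6th percentile over the 3 arrays while its values differed only between 0.38 and 0.71. Levels of different genes were not ordered within the lower mode for this reason.

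**Figure D5:**
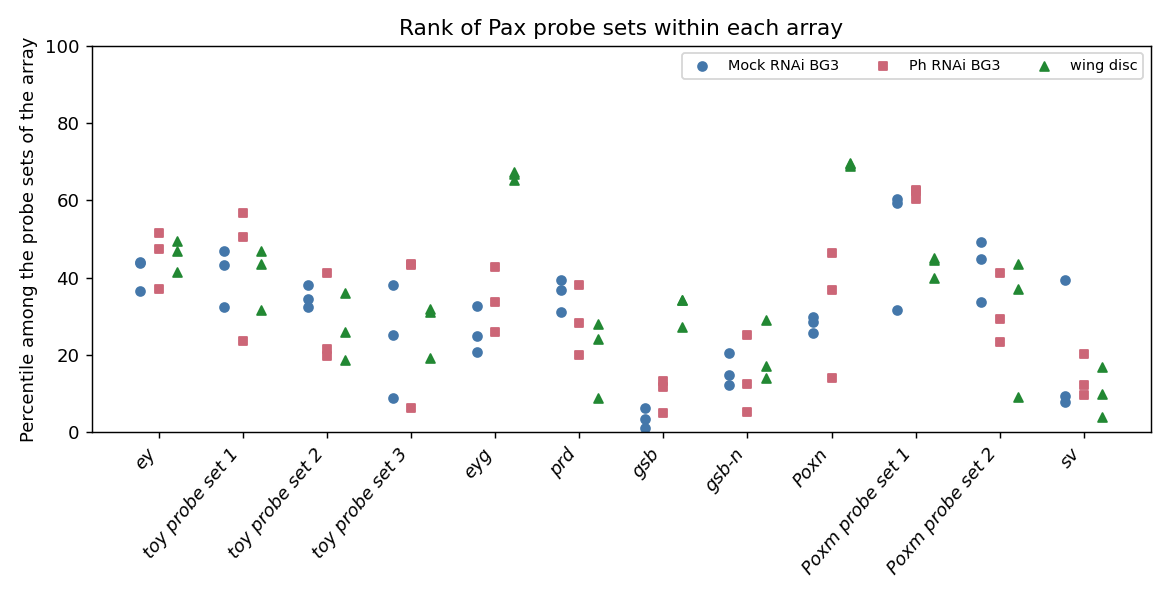
Percentile of each of the 12 Pax probe sets among the 18768 probe sets of the same array (y axis), for the 3 arrays each of Mock RNAi BG3 (circles), Ph RNAi BG3 (squares) and wing disc (triangles). *eyg* (65.3 to 67.3) and *Poxn* (69 to 69.8) stand apart in wing disc from their own BG3 ranks, and *Poxm* probe set 1 runs from 31.5 to 62.6 over the 6 BG3 arrays.

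In wing disc 16 of the 27 measured genes that act with or after Pax genes were in the upper mode, which held 48% of all genes. Of the 8 measured eye genes of that list 4 were among them, in a tissue where *ey* and *toy* were in the lower mode. *eya* stood at 6.59 ± 0.32, *dac* at 5.95 ± 0.1, *Optix* at 5.57 ± 0.06 and *so* at 4.47 ± 0.09 (SD, n = 3 each). The other 4, *dan*, *danr*, *ato* and *gl*, were in the lower mode, at 0.818 to 1.9. *upd1*, which encodes a JAK/STAT ligand that *eyg* promotes in the growing eye, was above the boundary at 3.96 ± 0.06. *slp2* and *pros*, both called higher in BG3 cells after Ph RNAi, were in the lower mode in wing disc (0.275 ± 0.114 and 0.623 ± 0.142). Of the 17 paired-class homeobox genes, 1 was in the upper mode in wing disc. This was *al*, a gene of limb tips and the wing disc (6.02 ± 0.1), which in BG3 cells was in the lower mode in both groups.

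The genes next to the Pax genes on the chromosome were read to see whether the low values extended beyond them. The order of protein-coding genes was taken from RefSeq. *gsb* and *gsb-n* are neighbours, as are *eyg* and *toe*, and *ey*, *toy* and *sv* all lie on chromosome 4. Of 16 other genes next to a Pax gene 15 were measured, and 4 of them were in the upper mode in Mock RNAi, against 46.2% of all genes. *Pex19*, a gene of peroxisomes next to *prd*, stood at 11.7 ± 0.18, *Cals* next to *sv* at 11.09 ± 0.53, *ArfGAP1* next to *toe* at 8.7 ± 0.2 and *fuss* next to *toy* at 5.28 ± 0.5 (SD, n = 3 each). Low values were thus not shared by all neighbours, and *prd* and *sv* each had a low neighbour on one side and a high one on the other. In wing disc 3 of the 15 were in the upper mode, against 48% of all genes. The genes on both sides of *Poxn* were in the lower mode there, as was the measured neighbour of *eyg*, *CG32102*.

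After Ph RNAi 1 of the 15 neighbours was called higher and 0 lower, which with 15 genes is near the shares over all genes (3.2% and 1.57%) and is not a result about the neighbours. The called gene was *Ctr1B*, a copper transporter gene next to *Poxm*, which stood at 2.09 ± 0.05 before and 2.68 ± 0.15 after Ph RNAi (SD, n = 3 each, adjusted p = 0.0417). Like *Poxm* it stayed in the lower mode. The call of *Ctr1B* was lost with any 1 of the 6 arrays left out (adjusted p = 0.0555 to 0.129). It was also lost with median centring over the genes tested (0.116), and without the variance trend it was just kept (0.0499). The gene on the other side of *Poxm*, *Or85a*, an odorant receptor gene, had a change of -0.04 ± 0.1 (SE, adjusted p = 0.903). *Ctr1B* and the other neighbours were chosen for naming after their values were seen.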

How the data were processed

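The authors processed Affymetrix Drosophila arrays, hybridized with biotin-labelled RNA made from 200 ng of total RNA, with GCRMA, a name taken from the submitters' processing notes, which give no version or settings. Each deposited value is the log2 signal of a probe set on an array. Of 18952 rows, 183 control rows and 1 blank row were left out. Of the remaining 18768 probe sets, 13647 had 1 gene symbol in the platform annotation, 402 several and 4719 none, and 13544 of the 13647 matched a RefSeq gene number. Where a gene had several probe sets, the one whose mean over all 9 arrays was highest stood for it. Titles call the replicates biological with nothing more on separate cultures or animals, so that p-values reflect only how far these samples differ among themselves, which may be technical. The number of arrays limits the precision.

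Ph RNAi and Mock RNAi were compared on the 6 BG3 arrays with limma 3.58.1 (R 4.3.3, lmFit and eBayes with a variance trend, two-sided, Benjamini-Hochberg over 11982 genes, called at an adjusted p under 0.05). The fit over all probe sets gave the values of further probe sets. The procedure was tested on simulated data. Modes are the peaks of a Gaussian kernel density of the gene values (scipy 1.17.1), and the boundary is the lowest point between them. Percentiles are mid-ranks among all probe sets of an array. Named genes were all Pax members and the called genes of the 2 lists of related genes. Genes most like a member were to be named only for called members, of which there were 0. Members and lists were chosen with earlier results of these data known. Alternatives were the variance trend, a robust prior, quantile normalization, median centring, a filter on low values, the unit of the fit, each array left out, and the replicate number as a block. Same-numbered Mock RNAi and Ph RNAi arrays did not deviate together throughout.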

Additional observations from a re-analysis of the deposited data

How the results depend on the processing

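No Pax gene was called in the settings tried except *Poxm* with the replicate number as a block. The labels name no pairing of same-numbered arrays. Deviations of replicates 1, 2 and 3 correlated at 0.16, 0.16 and -0.17, and those of differently numbered arrays at -0.23 to 0.17. These values do not settle whether same-numbered arrays were handled together. The replicate block called 1 Pax gene higher (*Poxm*, 0.79, adjusted p = 0.029), and 503 genes higher and 263 lower over all genes, against 384 and 188 without it. The call of *odd* was lost with it (adjusted p = 0.0612). The adjusted p of *Poxm* ranged from 0.029 to 0.399 over its 14 alternatives. With median centring over the genes tested, chosen after the data were seen, every change was shifted by -0.18, 507 genes were called lower and 339 higher, and the changes of *ey* (-0.096), *toy* (-0.047), *eyg* (-0.075), *gsb* (-0.0201) and *Poxn* (-0.11) turned sign. Genes called lower numbered 88 to 158 with 1 array left out (99 without Mock RNAi BG3 replicate 2, 88 without Mock RNAi BG3 replicate 3 and 118 without Ph RNAi BG3 replicate 3), and genes called higher 266 to 378. Leaving out 1 array gave changes of -0.033 to 0.33 for *toy*, -0.12 to 0.034 for *gsb-n*, -0.039 to 0.202 for *Poxn* and -0.14 to 0.087 for *sv*, each turning sign once. These turns came without Ph RNAi BG3 replicate 2 for the first 3 genes and without Mock RNAi BG3 replicate 1 for *sv*. The cause was not tested. With the filter on low values no Pax gene was left to test, and 5 of the genes that act with or after Pax genes were called higher. With no probe set of *toe* and every measured Pax gene weak in BG3 cells, small changes of the Pax genes within the lower mode were not resolved.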
